A study of Mus musculus with 10 samples.

Results

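The cornified envelope is the cross-linked protein shell of the outermost cells of the epidermis. Its genes are described here in cultured mouse cells, for the 36 genes of the array whose symbol begins with Lce or Sprr and a digit, or is Lor, Ivl, Flg, Rptn, Crnn or Dmkn. They were 36 of 20863 named genes and were read by 52 of 62976 features. The set was proposed because of how its levels differed between these arrays, so its values are a description and carry no p-value. Gene expression was measured on 10 Agilent arrays, labelled with Cy3, of total RNA. All cells came from a congenic strain homozygous for the R26-M2rtTA allele, which provides the doxycycline-controlled activator. Sertoli-like cells induced from fibroblasts (ieSCs) were on 8 arrays, 4 MEF-derived and 4 TTF-derived, and carried 5 transgenes: Dmrt1, Gata4, Nr5a1, Sox9 and Wt1. They were made from mouse embryonic fibroblasts (MEFs) or from tail tip fibroblasts (TTFs) of females, and had been kept without doxycycline for 2 weeks. The 2 control arrays held MEFs without the transgenes, also after 2 weeks, in the same F12/DMEM medium. Each kind of ieSC carries the numbers 1 and 2 in its name, called preparations 1 and 2 below, with 2 arrays each (1a, 1b, 2a and 2b). The labels do not say whether a preparation is a clone, or whether its arrays hold separate cultures. No unconverted TTFs were among the arrays, so the origin of the TTF-derived cells and their conversion cannot be told apart against MEFs.

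In terminally differentiating keratinocytes, transglutaminases join loricrin, involucrin, the small proline-rich (Sprr) proteins and the late cornified envelope (Lce) proteins into a shell beneath the plasma membrane. Nearly all of their genes lie side by side in the epidermal differentiation complex, together with filaggrin (Flg), repetin (Rptn), cornulin (Crnn) and the S100 calcium-binding genes. Dermokine (Dmkn), a secreted protein of the differentiated epidermal layers, is encoded elsewhere. Sprr genes are also known from stressed or wounded epithelia outside the skin. The complex held 67 RefSeq genes from Lor to Rptn, of which 40 protein-coding ones matched the naming rule. Of these, 35 had a named feature, and 5 were not analysed here.

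The promoter windows of 8 members are given first, because the Lce1 and Sprr genes described below differed in what these windows hold. Of the 36 genes, 35 had an entry in the RefSeq promoter table (GRCm38.p6), and Lce1f had none. The windows shown are the 220 bases before the annotated start, read 5′ to 3′ on the strand of the gene. Capitals mark TGANTCA, the sequence bound by AP-1 (Fos and Jun dimers), searched on both strands, and TATAAA, the TATA box, searched on the strand of the gene. The Lce1 windows lie on the minus strand at chr3:92752339-92752558 (Lce1g), chr3:92765066-92765285 (Lce1h) and chr3:92778900-92779119 (Lce1i). The windows of Sprr2f (chr3:92364967-92365186) and Sprr2h (chr3:92385465-92385684) lie on the plus strand, and those of Sprr1a (chr3:92485882-92486101) and Ivl (chr3:92573736-92573955) on the minus strand. The Dmkn window is on the plus strand at chr7:30763536-30763755, the first of 3 entries of that gene.
Lce1g: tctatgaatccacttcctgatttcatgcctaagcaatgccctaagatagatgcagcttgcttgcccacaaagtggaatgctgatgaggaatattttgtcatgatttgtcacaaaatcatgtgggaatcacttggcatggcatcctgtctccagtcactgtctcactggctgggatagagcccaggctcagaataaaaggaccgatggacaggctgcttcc
Lce1h: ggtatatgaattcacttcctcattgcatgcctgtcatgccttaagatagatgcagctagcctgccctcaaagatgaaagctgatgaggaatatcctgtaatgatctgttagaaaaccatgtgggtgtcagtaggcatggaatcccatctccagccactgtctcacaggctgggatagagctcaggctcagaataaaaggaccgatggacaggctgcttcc
Lce1i: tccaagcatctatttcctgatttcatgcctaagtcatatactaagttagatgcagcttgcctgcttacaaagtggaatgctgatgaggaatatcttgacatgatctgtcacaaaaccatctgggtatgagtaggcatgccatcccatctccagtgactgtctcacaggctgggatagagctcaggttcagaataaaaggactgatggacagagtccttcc
Sprr2f: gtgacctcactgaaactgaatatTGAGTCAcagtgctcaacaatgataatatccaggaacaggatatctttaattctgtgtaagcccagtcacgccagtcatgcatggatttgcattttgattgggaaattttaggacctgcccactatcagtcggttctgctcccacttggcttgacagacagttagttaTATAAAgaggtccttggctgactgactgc
Sprr2h: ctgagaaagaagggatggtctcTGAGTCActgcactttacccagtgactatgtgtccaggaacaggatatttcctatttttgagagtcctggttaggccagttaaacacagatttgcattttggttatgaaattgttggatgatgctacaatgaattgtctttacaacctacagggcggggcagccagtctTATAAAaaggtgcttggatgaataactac
Sprr1a: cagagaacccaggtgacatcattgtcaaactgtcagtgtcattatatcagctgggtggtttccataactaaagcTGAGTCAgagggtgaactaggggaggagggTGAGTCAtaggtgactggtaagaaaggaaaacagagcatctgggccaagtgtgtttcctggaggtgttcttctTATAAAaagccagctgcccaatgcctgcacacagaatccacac
Ivl: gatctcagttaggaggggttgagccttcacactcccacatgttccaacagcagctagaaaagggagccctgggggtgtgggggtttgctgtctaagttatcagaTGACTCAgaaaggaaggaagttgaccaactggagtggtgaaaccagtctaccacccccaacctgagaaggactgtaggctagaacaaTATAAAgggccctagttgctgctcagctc
Dmkn: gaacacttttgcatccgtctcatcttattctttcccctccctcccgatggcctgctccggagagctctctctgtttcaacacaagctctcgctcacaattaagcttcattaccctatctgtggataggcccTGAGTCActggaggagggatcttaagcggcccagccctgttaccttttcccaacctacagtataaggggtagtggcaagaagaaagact

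Across the whole table of promoters, which run from 250 bases before to 50 bases after the start, TGANTCA occurred in 7.81% of 32851 windows and TATAAA in 8.32%. Among the 10 Sprr2 windows, 7 held TGANTCA, with its first base 198 to 182 bases before the start, and the same number held TATAAA, in each case at -29. Of the 13 Lce1 windows, 0 held TGANTCA and 2 held TATAAA. The Lce1 and Sprr2 windows counted here include Lce1j and Sprr2a3, which had no named feature. Sprr1a held 2 matches to TGANTCA, and Sprr1b, Ivl, Lor, Crnn, Flg, Rptn and each Dmkn entry held 1. Over all members, 17 of 42 windows held TGANTCA. The C/EBP letters TTNNGNAA occurred in 9 of 10 Sprr2, 6 of 6 Lce3 and 2 of 13 Lce1 windows, beside 40.7% of all windows. The Klf letters CCNCNCCC were found in 5 of 10 Sprr2 and 0 of 13 Lce1 windows, beside 49.5% of all. AACCNGTT, the Grainyhead-like letters, occurred in 2.09% of all windows and in 1 member window, that of Rptn. The antioxidant response letters TGACNNNGC occurred in 12.4% of all windows and in 7 of 42 member windows; in Sprr1a they overlapped 1 of the AP-1 matches. These 4 motifs were also searched on both strands. The windows of neighbouring Lce1 genes resembled each other, with 84.5% identical bases between Lce1g and Lce1i, 75.9% between Lce1g and Lce1h and 73.6% between Lce1h and Lce1i. The 220 bases of Sprr2a1 and Sprr2a2 were 100% identical.

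Levels are the deposited log2 intensities, whose values above the 40th percentile are distributed nearly alike on all arrays, as after quantile normalisation. The table holds no detection flags. The 40th percentile of each array lay between 4.988 and 5.023, called the filter level below, and a level under it belongs to the dim end of an array. Features above it on at least 2 arrays were tested, which left 43 of the 52 member features and 30 of the 36 genes. The other 6 genes, Flg, Rptn, Lce3a, Lce3f, Sprr2a1 and Sprr4, were dim and not tested. A gene is given by its tested feature with the highest mean. In bulk cultures, fewer cells that make a transcript and less of it per cell cannot be told apart.

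As a check of the labels, 10 of 11 fibroblast markers fell in the ieSCs against MEFs by limma's moderated test at an adjusted p of 0.05. Of 14 Sertoli markers tested, 8 rose and 5 fell, with a median log2 difference of 2.28, beside 0.086 over all genes. The mean level of 15 Sertoli markers per array ran from 8.34 to 8.35 in MEFs. It ran from 10.26 to 10.44 in MEF-derived and from 9.96 to 10.08 in TTF-derived cells. Dhh, Tesc, Wt1 and Sox9 had the smallest p over the group comparisons. Sox9 and Gata4 were among those that fell. Where a feature lies in its gene was not used here, so signal of a transgene and of the endogenous gene cannot be told apart. Mesothelium markers rose in 7 of 8 cases. The 8 macrophage markers were above the filter level on both MEF arrays, and all 8 fell in the ieSCs. Of all genes tested, 27.3% rose and 24.4% fell in ieSCs against MEFs. Arrays of 1 preparation, or both MEF arrays, correlated over all features between 0.990 and 0.997, and the preparations of 1 ieSC group between 0.988 and 0.990. No whole array stood apart from its partner.

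Dmkn and Sprr1a were high in both kinds of ieSC, most Sprr2 genes and Ivl were highest in MEF-derived ieSCs, and most Lce1 genes were highest in preparation 1 of these. Of the 36 genes, 23 were above the filter level on every MEF-derived array, 14 on every TTF-derived array and 19 on both MEF arrays. Of the 30 tested, MEF-derived ieSCs were past limma's adjusted threshold of 0.05 against MEFs in 11 upward and 2 downward, beside 28.5% and 25.0% (53.5% together) of all 16726 genes tested. TTF-derived ieSCs were past it in 4 upward and 1 downward, beside 24.6% and 22.8% (47.4% together). The downward calls of both comparisons include Sprr2a2 by its brightest feature, 61465, which is the 1 for TTF-derived cells. Its feature 40427 was past the threshold upward, by 5.95 ± 0.54 in MEF-derived and 3.76 ± 0.54 in TTF-derived cells. Its feature 25388 was past it upward in MEF-derived cells only. The median log2 difference of the 30 genes was 1.53 for MEF-derived and 0.098 for TTF-derived cells, beside 0.10 and 0.061 over all genes. Both comparisons used the same 2 MEF arrays. Over both ieSC groups, 8 members were past the threshold upward and 2 downward, beside 27.3% and 24.4% (51.7% together) of all genes. Since the genes were chosen on these differences, nothing is read from the shares. Without MEF-derived preparation 2 the count for MEF-derived cells was 23, with 21 upward, and that for all ieSCs 17, with 15 upward. For TTF-derived cells it was then 10, with 5 upward and 5 downward. Without MEF-derived preparation 1 the TTF-derived count was 9, with 4 upward and 5 downward.

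**Figure D1:**
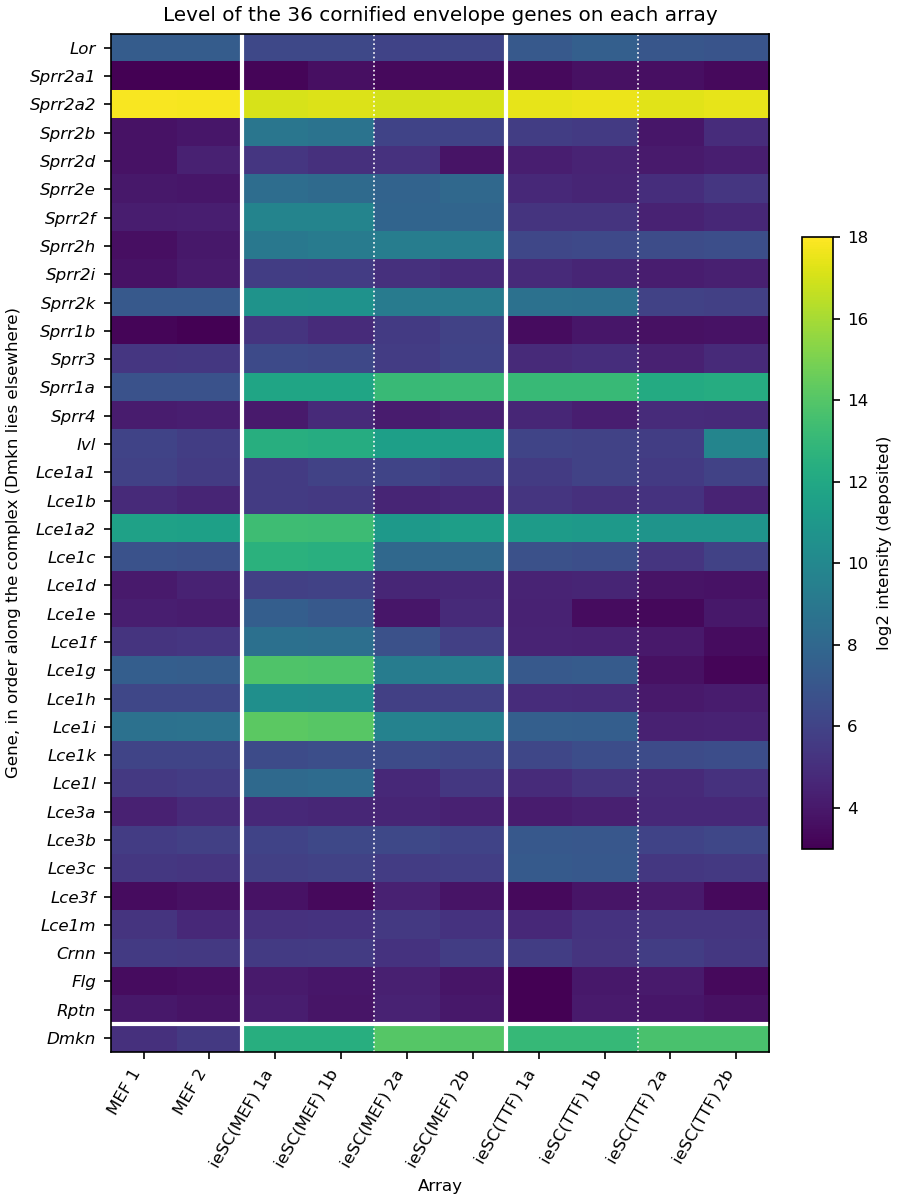
Log2 intensity (colour) of the 36 cornified envelope genes, 1 row each in the order of the complex with Dmkn last, on the 10 arrays (columns); solid white lines separate the 3 groups and dotted lines the preparations. Lce1g and Lce1i are bright on MEF-derived arrays 1a and 1b, whereas Dmkn and Sprr1a are bright on all 8 ieSC arrays.

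Dmkn, dermokine, was near the filter level in MEFs and bright in every ieSC culture. It stood at 5.09 and 5.48 on the MEF arrays, at 12.38, 12.41, 14.05 and 13.96 on the MEF-derived arrays, and at 13.04, 13.03, 13.69 and 13.71 on the TTF-derived arrays, in the order 1a, 1b, 2a and 2b. Every ieSC array lay far above both MEF arrays. The log2 difference from MEFs was 7.92 ± 0.52 (SE) for MEF-derived and 8.08 ± 0.52 for TTF-derived cells. The ieSC groups overlapped and differed by 0.17 ± 0.42. Preparation 2 lay above preparation 1 in both, by 1.61 ± 0.12 in MEF-derived and 0.67 ± 0.12 in TTF-derived cells. The second feature of Dmkn gave 7.73 and 7.89 against MEFs for the same groups.

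Sprr1a, an envelope protein known for its induction in injured tissue, followed the same group pattern. Its levels were 6.75 and 6.78 in MEFs, 11.83, 11.83, 13.19 and 13.23 in MEF-derived cells, and 13.13, 13.08, 12.16 and 12.26 in TTF-derived cells. No ieSC array came near the MEF arrays, and the ieSC groups overlapped. The differences from MEFs were 5.75 ± 0.48 for MEF-derived and 5.89 ± 0.48 for TTF-derived cells. The preparations went opposite ways: preparation 2 was higher by 1.38 ± 0.07 in MEF-derived cells, and its difference was -0.90 ± 0.07 in TTF-derived cells. Sprr1b, the closely related gene, was dim in MEFs at 3.22 and 2.84. It reached 5.23, 4.87, 5.54 and 5.99 on the MEF-derived arrays and stayed at 3.49, 3.92, 3.69 and 3.72 on the TTF-derived arrays. Only the MEF-derived arrays reached the filter level, on 3 of 4, and they did not overlap the TTF-derived arrays, which were lower by a log2 difference of -1.70 ± 0.28.

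The Sprr2 genes are a tandem family of short envelope cross-linkers. Their mean level was highest in MEF-derived ieSCs for 7 of the 9; Sprr2a2, by its brightest feature, was highest in MEFs and the dim Sprr2a1 in TTF-derived cells. Of the 9 genes, 8 were tested, and against MEFs 6 were past the threshold upward and 1 downward in MEF-derived cells, and 2 upward and 1 downward in TTF-derived cells. The shares over all genes, given above, were 28.5% and 25.0% for the former and 24.6% and 22.8% for the latter. Both downward calls were Sprr2a2 by that brightest feature. Sprr2h was at 3.63 and 3.98 in MEFs, at 9.02, 9.25, 9.37 and 9.31 in MEF-derived cells and at 6.19, 6.31, 6.46 and 6.58 in TTF-derived cells. The 3 groups formed 3 separate steps, with little difference between preparations. MEF-derived cells were above MEFs by 5.43 ± 0.20 and TTF-derived cells by 2.58 ± 0.20, and the TTF-derived minus MEF-derived difference was -2.85 ± 0.16. Sprr2e showed a like order, with 3.98 and 3.90 in MEFs, 8.36, 8.16, 7.80 and 8.09 in MEF-derived cells, and 4.72, 4.54, 4.97 and 5.39 in TTF-derived cells. The TTF-derived arrays lay near the filter level, above MEFs by 0.96 ± 0.28. Without MEF array 2, or with the arrays of a preparation averaged, that difference no longer passed the threshold.

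Other Sprr2 genes also differed between preparations. Sprr2f was at 4.21 and 4.25 in MEFs, at 9.79, 9.76, 7.86 and 7.87 in MEF-derived cells and at 5.28, 5.27, 4.43 and 4.67 in TTF-derived cells. MEF-derived arrays lay apart from all others, with a difference of 4.59 ± 0.59 from MEFs and, for TTF-derived minus MEF-derived cells, of -3.91 ± 0.48. For preparation 2 minus 1 the differences were -1.91 ± 0.09 (MEF-derived) and -0.72 ± 0.09 (TTF-derived). Sprr2b had 3.74 and 3.90 in MEFs, 8.91, 8.71, 6.04 and 5.996 in MEF-derived cells, and 5.73, 5.53, 3.92 and 4.92 in TTF-derived cells. Preparation 1 of the TTF-derived cells came close to preparation 2 of the MEF-derived cells without overlapping it. The difference of MEF-derived cells from MEFs was 3.60 ± 0.93 and no longer passed with the arrays of a preparation averaged. That between the ieSC groups, -2.39 ± 0.76, ended under many alternatives, among them the loss of either MEF array. Sprr2k, unlike these, was well above the filter level in MEFs, at 7.18 and 7.20. It was at 10.71, 10.67, 9.26 and 9.25 in MEF-derived cells and at 8.61, 8.52, 5.96 and 5.84 in TTF-derived cells. The TTF-derived preparations lay on either side of the MEF arrays, so their group difference from MEFs was 0.04 ± 0.86 although preparation 2 minus 1 was -2.67 ± 0.07. MEF-derived cells were above MEFs by 2.78 ± 0.86, a call lost without either MEF array, without MEF-derived preparation 1 or with the arrays averaged. The TTF-derived minus MEF-derived difference, -2.74 ± 0.71, lost its call with the arrays averaged, without MEF-derived preparation 1 or without TTF-derived preparation 2.

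**Figure D2:**
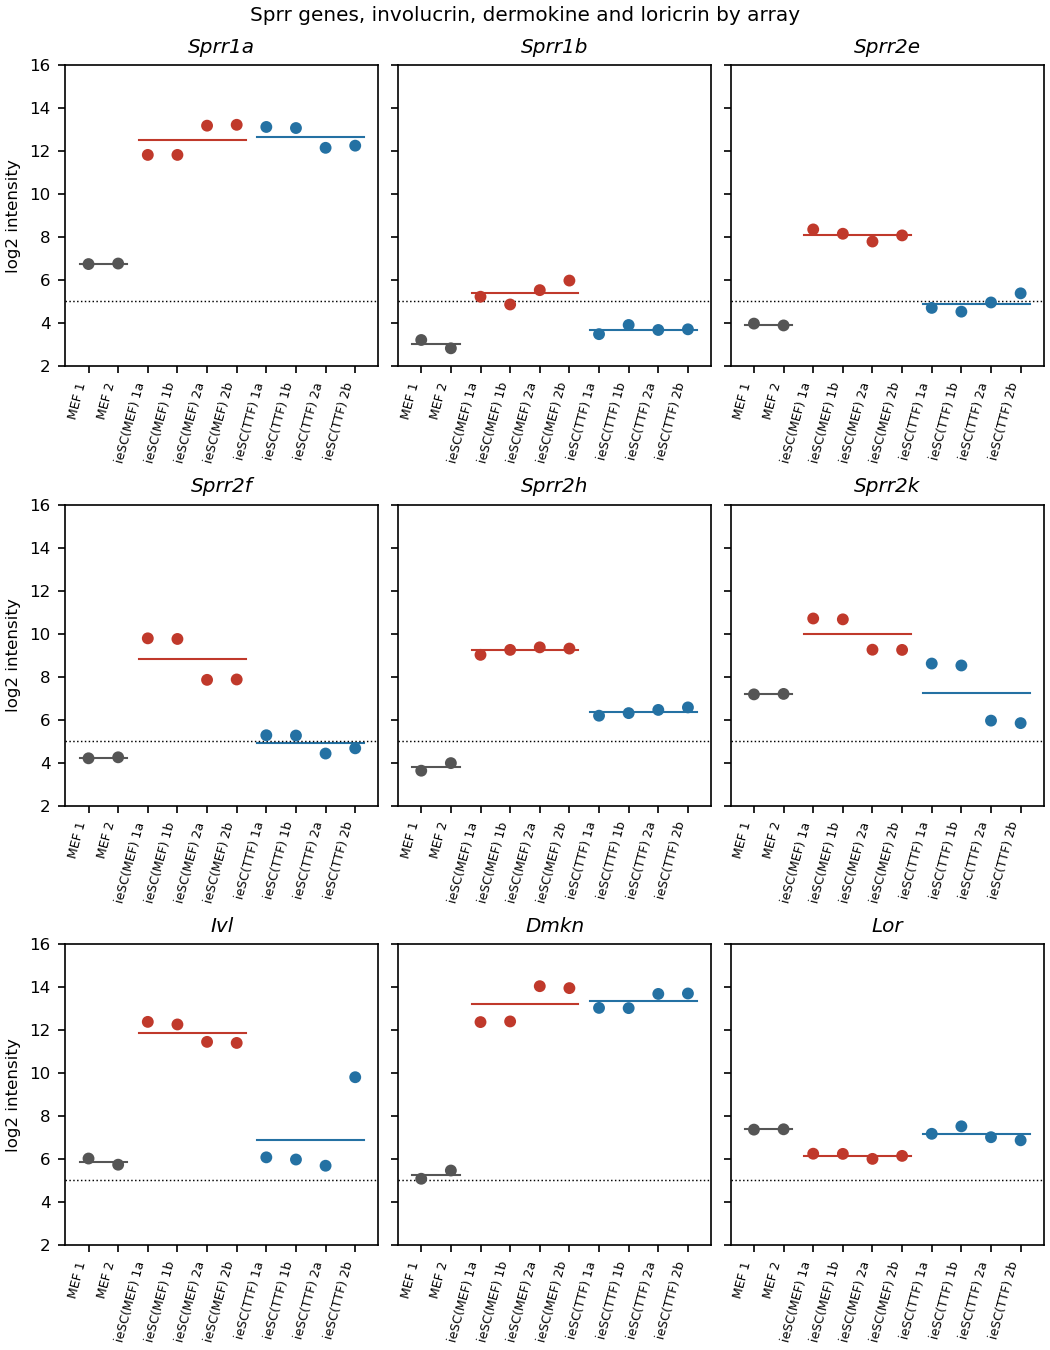
Log2 intensity (y axis) of 9 genes on each array (x axis): grey points are MEFs, red MEF-derived and blue TTF-derived ieSCs, the short lines are group means and the dotted line is the filter level. Dmkn and Sprr1a are high in both ieSC groups, Sprr2h forms 3 steps, and 1 TTF-derived point of Ivl, at 9.82, stands apart.

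The remaining Sprr genes differed less or were dim. Sprr2i, Sprr2d and Sprr3 had log2 differences from MEFs of 1.43, 0.78 and 0.67 in MEF-derived cells and of 0.56, 0.22 and -0.68 in TTF-derived cells. Sprr2a1 and Sprr4 were below the filter level on all arrays, with 0.29, the lowest value of the whole table, for Sprr2a1 on MEF array 1. Sprr2a2 cannot be summarised by 1 feature. Feature 61465, the brightest and therefore taken for the gene, read 17.83 and 17.79 in MEFs, 17.12, 17.22, 17.05 and 17.09 in MEF-derived cells, and 17.43, 17.57, 17.35 and 17.43 in TTF-derived cells. It was thus brightest in MEFs, the reverse of the other 2 features of that name, which were picked out after their values were seen. Feature 40427 read 7.03 and 7.12 in MEFs, 13.77, 13.87, 12.09 and 12.35 in MEF-derived cells, and 11.28, 11.34, 10.32 and 10.41 in TTF-derived cells. Feature 25388 gave log2 differences from MEFs of 1.31 ± 0.34 for MEF-derived and 0.34 ± 0.34 for TTF-derived cells. Over the 3 features the MEF-derived difference ran from -0.69 to 5.95. Which of them reads Sprr2a2, and whether any reads its near-identical copies, was not tested.

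Ivl, involucrin, an early scaffold of the envelope, was high in MEF-derived ieSCs of both preparations and at the level of MEFs on most TTF-derived arrays. The feature taken for the gene, 14837, read 6.03 and 5.75 in MEFs, 12.39, 12.27, 11.46 and 11.41 in MEF-derived cells, and 6.09, 5.99, 5.70 and 9.82 in TTF-derived cells. The last value, of array 2b, had no counterpart on array 2a of the same preparation. The other feature, 38214, read 5.71 and 5.29 in MEFs, 11.21, 10.98, 10.22 and 10.31 in MEF-derived cells, and 5.62, 5.52, 5.07 and 5.18 in TTF-derived cells, where array 2b was no exception. MEF-derived cells exceeded MEFs by 5.99 ± 1.48 on the first feature and 5.18 ± 0.33 on the second. TTF-derived minus MEF-derived cells was -4.98 ± 1.21 and -5.33 ± 0.27. Over all ieSCs against MEFs the first feature did not pass the threshold, at 3.50 ± 1.35, while the second passed, at 2.52 ± 0.30. The first feature passed without TTF-derived array 2b, at 2.996, but also without array 2a, at 3.89. It passed under several other alternatives too, among them averaged arrays and the loss of either TTF-derived preparation.

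**Figure D3:**
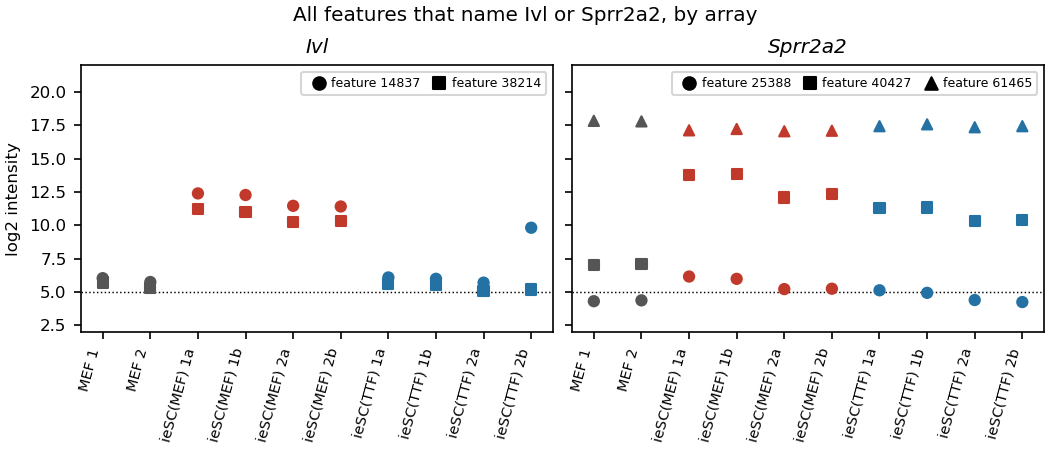
Log2 intensity (y axis) of every feature named Ivl (left) or Sprr2a2 (right) on the 10 arrays (x axis), with 1 marker shape per feature and the group colours grey for MEFs, red for MEF-derived and blue for TTF-derived ieSCs. The 2 Ivl features part on TTF-derived array 2b, at 9.82 and 5.18, and Sprr2a2 feature 61465 is above 17 on all arrays while feature 40427 goes from about 7.03 in MEFs to 13.87 in MEF-derived cells.

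Lor, loricrin, the main protein of the finished envelope, was lower in MEF-derived ieSCs than in MEFs. It stood at 7.38 and 7.39 in MEFs, at 6.26, 6.25, 6.02 and 6.16 in MEF-derived cells, and at 7.18, 7.53, 7.03 and 6.88 in TTF-derived cells. The MEF-derived arrays lay below all others, by -1.22 ± 0.20 against MEFs, while the TTF-derived arrays overlapped the MEF arrays at -0.23 ± 0.20. Crnn, cornulin, lay between 5.21 and 5.73 on every array, with differences of 0.01 ± 0.27 and 0.02 ± 0.27 from MEFs. Flg, which aggregates keratin filaments, and Rptn, a matrix protein of the same fused-type family, were below the filter level on all arrays. Flg ran from 3.03 to 4.31 and Rptn from 2.90 to 4.43. Neither was tested. The MEF-derived readings of Flg, 3.86 to 4.31, lay above those of MEFs, 3.51 and 3.59, by 0.49, and its other groups and those of Rptn overlapped.

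The Lce1 genes, which encode late cornified envelope proteins, set the preparations apart. All 13 were tested, and 10 were past the threshold downward and 0 upward for preparation 2 minus 1 of the MEF-derived cells, where 9.62% of all genes were past it downward and 8.07% upward (17.7% together). In the TTF-derived cells 5 were past it downward and 0 upward, beside 11.4% and 9.59% (21.0% together) of all genes. Lce1d and Lce1h, among these 5, were below the filter level on every TTF-derived array. In the MEF-derived comparison, Lce1d and Lce1e were above the filter level on arrays 1a and 1b only. Those arrays brought both genes into the test, which favoured a downward call. The 10 include Lce1a2, whose second feature gave 0.11 ± 0.16, and Lce1b, whose 10 features ran from -1.20 to 0.003. The p-values behind these counts measure the spread between the 2 arrays of a preparation, which may be technical. Over the 30 member genes tested, the counts were 14 downward and 2 upward in MEF-derived cells and 11 downward and 1 upward in TTF-derived cells. Nothing is read from these shares, since the differences between preparations were part of how the set was chosen.

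Lce1g and Lce1i had the widest ranges. Lce1g was at 7.49 and 7.40 in MEFs, at 13.86, 13.83, 9.32 and 9.37 in MEF-derived cells, and at 7.21, 7.28, 3.65 and 3.22 in TTF-derived cells. Preparation 1 of the MEF-derived cells stood far above every other array, and preparation 2 of the TTF-derived cells lay below the filter level. The MEF-derived preparations differed by -4.50 ± 0.13 (2 minus 1) and the TTF-derived ones by -3.81 ± 0.13. Lce1i was at 8.58 and 8.63 in MEFs, at 14.23, 14.10, 9.64 and 9.48 in MEF-derived cells, and at 7.53, 7.51, 4.39 and 4.45 in TTF-derived cells. The preparations and MEFs had the same order of means as for Lce1g, and preparation 2 minus 1 was -4.60 ± 0.08 and -3.10 ± 0.08. A second feature of Lce1i, dimmer throughout, gave -4.40 ± 0.17 and -0.82 ± 0.17. Its TTF-derived arrays, at 4.66, 4.54, 3.92 and 3.63, were all below the filter level. Against MEFs, the difference of MEF-derived cells was 4.15 ± 1.68 for Lce1g and 3.26 ± 1.58 for Lce1i, and that of TTF-derived cells -2.10 ± 1.68 and -2.63 ± 1.58. The 4 differences did not pass the threshold. Without MEF-derived preparation 2 those of the MEF-derived cells were 6.40 and 5.56 and passed it.

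Lce1h and Lce1c were also highest in MEF-derived preparation 1. Lce1h read 6.18 and 6.20 in MEFs, 10.46, 10.43, 5.84 and 5.86 in MEF-derived cells, and 4.90, 4.82, 4.01 and 4.14 in TTF-derived cells. Preparation 2 of the MEF-derived cells lay just below the MEF arrays. The TTF-derived cells lay below them too, at -1.72 ± 1.33, which did not pass the threshold. The sign of the difference between all ieSCs and MEFs, 0.12 ± 1.21, thus depended on the preparations. It was -1.03 without MEF-derived preparation 1 and 1.27 without preparation 2, and passed the threshold both times. Lce1c read 6.80 and 6.66 in MEFs, 12.56, 12.44, 8.09 and 8.05 in MEF-derived cells, and 6.72, 6.62, 5.32 and 5.97 in TTF-derived cells. Here preparation 2 of the MEF-derived cells was above MEFs too, and without preparation 1 the MEF-derived difference was 1.34 and passed the threshold. The preparation difference was -4.60 ± 0.07 for Lce1h and -4.43 ± 0.19 for Lce1c in MEF-derived cells, and -0.78 ± 0.07 and -1.02 ± 0.19 in TTF-derived cells. A second feature of Lce1c, dimmer throughout, gave -1.05 ± 0.15 and -0.52 ± 0.15. Its difference of MEF-derived cells from MEFs was 0.499 ± 0.385, beside 3.55 ± 1.31 on the first feature. Both did not pass the threshold.

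**Figure D4:**
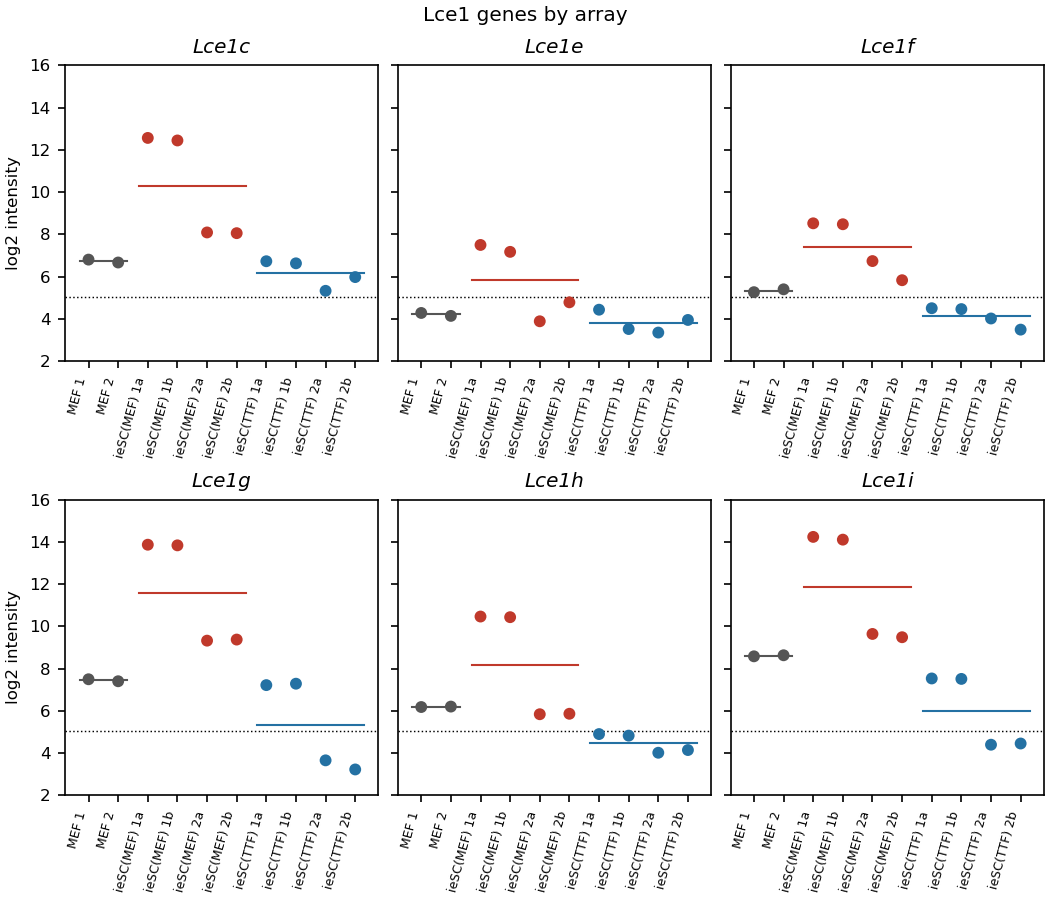
Log2 intensity (y axis) of 6 Lce1 genes on each array (x axis), with grey points for MEFs, red for MEF-derived and blue for TTF-derived ieSCs, short lines at the group means and a dotted line at the filter level. In each panel the arrays 1a and 1b of the MEF-derived cells are the highest, for example 13.86 and 13.83 for Lce1g.

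Lce1f, Lce1e and Lce1l had the same peak at a lower level. Lce1f read 5.26 and 5.39 in MEFs, 8.52, 8.47, 6.73 and 5.82 in MEF-derived cells, and 4.50, 4.46, 4.01 and 3.49 in TTF-derived cells. It was the 1 Lce1 gene past the threshold against MEFs, at 2.06 ± 0.76 for MEF-derived cells, a call that ended without either MEF array and under most other alternatives. Lce1e read 4.28 and 4.14 in MEFs, 7.49, 7.17, 3.88 and 4.78 in MEF-derived cells, and 4.43, 3.51, 3.35 and 3.94 in TTF-derived cells, so it was above the filter level on 2 arrays only. Lce1l read 5.48 and 5.64 in MEFs, 8.13, 8.26, 4.74 and 5.44 in MEF-derived cells, and 4.87, 5.25, 4.77 and 5.15 in TTF-derived cells. For all 3 genes preparation 1 of the MEF-derived cells lay above every other array. Preparation 2 minus 1 was -2.22 ± 0.28 for Lce1f, -3.00 ± 0.39 for Lce1e and -3.10 ± 0.24 for Lce1l.

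The other Lce1 genes varied less. Lce1a1, Lce1k and Lce1m had preparation differences between -0.22 and 0.34 and did not pass the threshold in any comparison. For Lce1a2 the 2 features parted, at -2.06 and 0.11 between the preparations of the MEF-derived cells. Lce1b was read by 10 features near or under the filter level, whose median per array ran from 4.15 on TTF-derived array 2b to 5.25 on MEF-derived array 1a. Lce1d differed by -1.28 ± 0.11 between the MEF-derived preparations and by -0.76 ± 0.11 between the TTF-derived ones. Its TTF-derived readings, from 3.719 to 4.525, were all below the filter level. The Lce3 genes, a family known for its expression in disturbed human epidermis, had 4 members on the array. Lce3a and Lce3f were dim and not tested, with 0.48 and 0.11 between the TTF-derived preparations, and Lce3b and Lce3c are named after their values were seen. Lce3c was at 5.43 and 5.30 in MEFs, at 5.82, 5.96, 5.69 and 5.81 in MEF-derived cells, and at 7.24, 7.13, 5.45 and 5.51 in TTF-derived cells. It was highest in preparation 1 of the TTF-derived cells, where preparation 2 minus 1 was -1.71 ± 0.09. Lce3b had the same order, with -0.996 ± 0.13, and the differences between the MEF-derived preparations were -0.01 for Lce3b and -0.14 for Lce3c.

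**Figure D5:**
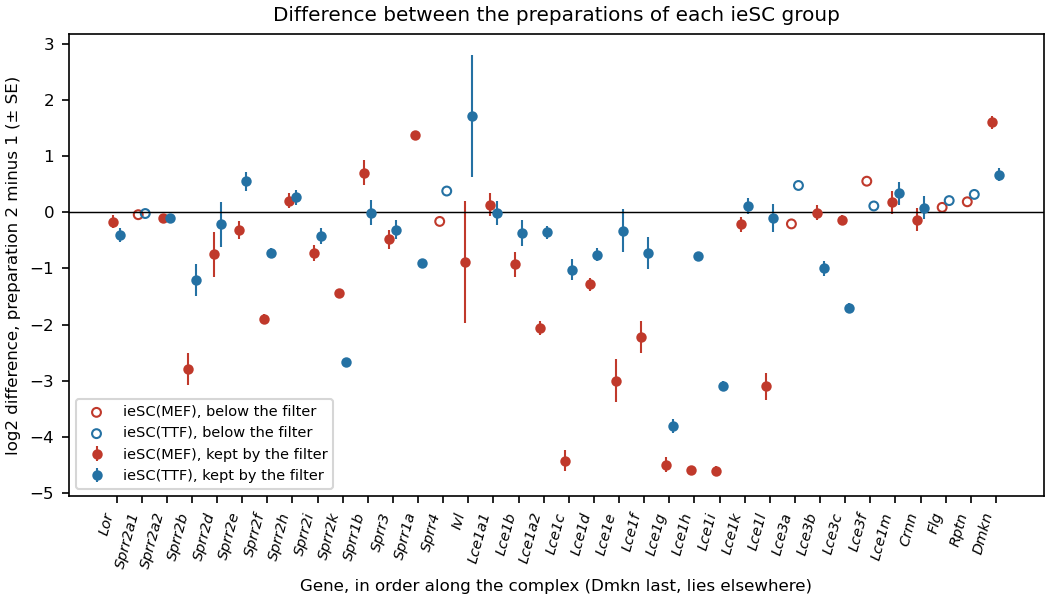
Log2 difference between preparation 2 and preparation 1 (y axis, ± SE) of each member along the complex (x axis, Dmkn last), in MEF-derived (red) and TTF-derived (blue) ieSCs; open circles are genes below the filter level, without SE. From Lce1c to Lce1i the red points lie between -4.60 and -1.28, Dmkn is above 0 in both, and Sprr1a is 1.38 in red and -0.90 in blue.

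TTF-derived and MEF-derived ieSCs differed in 17 of the 30 genes tested, 15 lower and 2 higher in the TTF-derived cells, beside 20.7% and 17.8% (38.5% together) of all genes. The median difference was -1.34, beside -0.045 over all genes. Both higher ones have been given: Lor at 0.99 ± 0.17 and the bright Sprr2a2 feature at 0.32 ± 0.10. The other 2 Sprr2a2 features were lower, at -2.19 ± 0.44 and -0.98 ± 0.28. Nothing is read from the shares, since the genes were chosen on these differences. Lce1d, Sprr1b and Sprr2i, among the lower ones, were above the filter level on MEF-derived arrays only. They were tested through the group where they are high, which favoured a lower call. By family, 6 of 13 Lce1 genes were lower, as were 6 of 8 Sprr2 genes and 1 of 2 Sprr1 genes, while both Lce3 genes tested did not pass. The differences of the Lce1 genes were -6.25 ± 1.37 for Lce1g, -5.89 ± 1.29 for Lce1i, -4.12 ± 1.07 for Lce1c, -3.68 ± 1.08 for Lce1h and -3.27 ± 0.62 for Lce1f. The second feature of Lce1c gave -0.46 ± 0.31 and did not pass the threshold. That of Lce1i gave -3.87 ± 1.05 and passed it. When the arrays of a preparation were averaged the count was 7, and without TTF-derived preparation 2 it was 11. None of these 5 Lce1 genes passed with the arrays averaged.

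Other genes of the same chromosome were tested beside the members. Of 22 other genes of the complex and S100 genes of the same chromosome, 14 rose and 1 fell in ieSCs against MEFs. In TTF-derived against MEF-derived cells, 10 were lower and 1 higher. The shares over all genes were 27.3% and 24.4% for the former and 20.7% and 17.8% for the latter. S100a8, an alarmin of neutrophils and inflamed skin, averaged 4.69 in MEFs, 11.70 in MEF-derived ieSCs of preparation 1 and 12.17 of preparation 2, and 6.10 and 6.28 in the TTF-derived preparations. The difference between the ieSC groups was -5.75 ± 0.17 (limma adjusted p = 3.88e-08). S100a7l2, another S100 gene, differed by -6.72 ± 0.38 (limma adjusted p = 1.89e-06). Prr9, a proline-rich gene beside Lor, rose by 4.26 ± 0.76 in ieSCs and fell by 2.90 ± 0.09 from preparation 1 to 2 of the TTF-derived cells.

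Among partners of the envelope outside the complex, 28 of 42 plaque proteins, keratins and cystatins with a feature were tested. Against MEFs, 19 rose and 1, the desmosomal plakophilin Pkp3 at -0.65 ± 0.22, fell in MEF-derived ieSCs, and 18 rose and 0 fell in TTF-derived ieSCs. The shares over all genes were 28.5% and 25.0% for the former and 24.6% and 22.8% for the latter. Over all ieSCs 20 rose and 0 fell, beside 27.3% and 24.4% of all genes. The median log2 difference was 1.85, beside 0.086 over all genes. Envoplakin (Evpl), on which the envelope is first laid down, rose by 5.39 ± 0.11 (limma adjusted p = 2.19e-09), and desmoplakin (Dsp), its desmosomal relative, by 5.41 ± 0.19 (limma adjusted p = 3.19e-08). Krt76, a keratin of the palate, rose by 7.50 ± 0.70, and suprabasin (Sbsn), a secreted epidermal protein, by 4.84 ± 0.21. Cystatin M/E (Cst6), an inhibitor of the proteases of cornification, fell by 3.31 ± 0.36 in TTF-derived against MEF-derived cells (limma adjusted p = 0.000131).

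Of 20 enzymes tested that cross-link or process the envelope, 6 rose and 4 fell against MEFs, shares close to the 27.3% and 24.4% over all genes. Tgm2, the widely expressed transglutaminase, rose by 2.17 ± 0.14, and Klk14, a protease of the shedding skin surface, by 5.12 ± 0.40. Tgm5, an epidermal transglutaminase, rose by 2.95 ± 0.57 from a dim 3.88 in MEFs, and fell by 2.06 ± 0.15 from preparation 1 to 2 of the TTF-derived cells. Casp14, a caspase of cornification, was lower in preparation 2 than in 1 of both ieSC groups, by -1.80 ± 0.11 and -1.58 ± 0.11. Spink5, the inhibitor of the kallikreins, fell by 3.26 ± 0.55 in TTF-derived against MEF-derived cells.

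Among 33 transcription factors of epidermal differentiation tested, 9 rose and 8 fell in ieSCs against MEFs. These shares were close to the 27.3% and 24.4% over all genes. The median was -0.050, beside 0.086 over all genes. Zfp750, a regulator of terminal epidermal differentiation, averaged 4.19 in MEFs, 8.15 and 7.67 in MEF-derived preparations 1 and 2, and 4.67 and 4.14 in TTF-derived ones. The ieSC groups differed by -3.51 ± 0.19 (limma adjusted p = 1.30e-06). Maf, a factor of the same programme, went the other way, with 11.91 in MEFs, 4.10 and 3.67 in MEF-derived and 10.90 and 10.72 in TTF-derived preparations, a difference of 6.93 ± 0.25 (limma adjusted p = 1.17e-07). Tfap2a rose by 3.11 ± 0.12 against MEFs, alike in both groups at 12.05 to 12.24 and 12.00 to 12.18. Of the AP-1 members, Fosb averaged 9.62 and 11.80 in MEF-derived preparations 1 and 2 and rose by 2.18 ± 0.07 between them (limma adjusted p = 7.81e-06), and Fos rose by 0.89 ± 0.06. Both were thus higher in the MEF-derived preparation with the lower Lce1 levels, and their part in those levels was not tested.

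Markers of keratinocytes, the cells that make the envelope in skin, were measured beside the members. Of 11 tested, 5 rose and 1 fell in ieSCs against MEFs, beside 27.3% and 24.4% of all genes. The mean level of the 12 markers per array ran from 7.13 to 7.15 in MEFs, from 8.03 to 8.33 in MEF-derived and from 7.54 to 8.15 in TTF-derived cells. Of the 12, 10 were above the filter level on every MEF-derived array, 10 on every TTF-derived array and 8 on both MEF arrays. Perp, Lgals7, Krt1 and Krt15 had the smallest p over the group comparisons. Krt1 and Lgals7 were below the filter level on both MEF arrays, but not on all arrays of either ieSC group. Dsg3, a desmosomal cadherin of basal keratinocytes, was below the filter level on all arrays. Krt5, the basal keratin, differed by 0.28 between ieSCs and MEFs and did not pass (limma adjusted p = 0.467). Krt14, its partner, rose by 1.35 ± 0.07 from preparation 1 to 2 of the MEF-derived cells and fell by 2.69 ± 0.07 in the TTF-derived cells, so that its sign was opposite to that of the Lce1 genes in the former and the same in the latter. Of the 12 markers, 9 also stand in the list of partners above. Markers of simple epithelia moved too. Of 7 tested, 5 were higher and 1 lower in TTF-derived than in MEF-derived cells (17.8% and 20.7% of all genes), with a median of 2.42. In preparation 2 against 1 of the TTF-derived cells, 5 were higher and 0 lower (9.59% and 11.4% of all genes). Their mean level per array over 9 markers ran from 6.53 to 6.58 in MEFs, from 6.88 to 7.45 in MEF-derived and from 7.97 to 8.74 in TTF-derived cells; Cdh1 and Epcam were below the filter level on all MEF and MEF-derived arrays. Beside 8.07% and 9.62% of all genes, 5 of 8 mesothelium markers were higher and 0 lower in preparation 2 of the MEF-derived cells. Their mean level ran from 10.01 to 10.02 in MEFs, from 12.96 to 13.86 in MEF-derived and from 14.19 to 14.55 in TTF-derived cells. Beside 11.4% and 9.59% of all genes, 6 of 11 fibroblast markers were lower and 1 higher in preparation 2 of the TTF-derived cells. The part of such cells in the levels of the members was not tested.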

How the data were processed

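Source names in the labels gave the groups. The authors deposited 1 table of log2 intensity for 62976 features on 10 arrays. Limma is named, without a version, in the submitters' processing notes; background correction and the normalization step are not given in the sources used here. Above the 40th percentile the largest gap between sorted columns is 0.0379, as after quantile normalisation, so a change in total RNA cannot be seen. The deposited log2 columns have medians of 5.759 to 5.782.

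Gene names came from the platform annotation, updated through RefSeq (GRCm38.p6): 31465 features named 1 symbol and 31511 none, accessions of 29050 matched, and 2933 received a newer symbol. Features above the 40th percentile on at least 2 arrays (42617) entered limma 3.58.1 (R 4.3.3, statmod 1.5.0) with all 10 arrays, two-sided, with Benjamini-Hochberg adjustment over all of them. Group comparisons took the name that 2 arrays share as a random block (correlation 0.468, 7 residual and 2.34 prior degrees of freedom). Preparations were compared by the mean of each of the 5 names (5 residual, 2.18 prior). Shares over 16726 genes use 1 feature per gene. The array number limits the precision.

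Named array by array were Lor, Ivl, Flg, Rptn, Crnn, Dmkn and the 14 other tested members with the largest difference in any comparison; of other lists, up to 4 genes by smallest p between groups and up to 2 in each preparation comparison. Gata4, Krt5, Dsg3, Pkp3, Cdh1, Epcam and the second features of Ivl, Sprr2a2, Lce1c and Lce1i lie outside this rule. So do the remaining members given by value, and all of these were chosen after their values were seen. Members, lists and tests were chosen with earlier results of these data known. The fit was tested on simulated data. Alternatives were other filters, 1 feature per gene, trend and robust variance, the array code series as a term, no block, averaged arrays, a replicate block, and leaving out each array or preparation; leave-out fits estimated the block correlation from every 4th feature. Protein sequences of the members were not used here.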

Additional observations from a re-analysis of the deposited data

Results flagged for a closer look

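The reading of 9.816 for Ivl feature 14837 on TTF-derived array 2b lay apart from the other 3 arrays of its group, which ran from 5.699 to 6.089; the gap was 0.905 of the whole range, above the critical value of 0.829 for 4 samples. Among the 48 pairs of a feature and an ieSC group that were looked at, those of the untested Flg and Rptn included, it was the 1 such value. The critical value assumes 4 separate samples, whereas the 4 arrays of a group are 2 preparations of 2 arrays, so it gives no chance rate here. The second Ivl feature read 5.181 on that array.

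The level in TTF-derived minus that in MEF-derived ieSCs was past limma's adjusted threshold for 13 members given array by array. The origin of the cells and their conversion cannot be told apart here, and since these comparisons chose the genes, the differences are listed as values. Lor differed by 0.9852. The Lce1 differences were -6.253 for Lce1g, -5.89 for Lce1i, -4.123 for Lce1c, -3.677 for Lce1h and -3.273 for Lce1f. The second feature of Lce1c gave -0.458 and did not pass, and that of Lce1i gave -3.867 and passed. The Sprr differences were -3.907 for Sprr2f, -3.201 for Sprr2e, -2.854 for Sprr2h, -2.737 for Sprr2k, -2.389 for Sprr2b and -1.703 for Sprr1b. Ivl differed by -4.983. With the arrays of each preparation averaged, those of the 5 Lce1 genes, Sprr2k and Sprr2b no longer passed, and without TTF-derived preparation 2 the same held for Lce1g, Lce1i, Lce1c, Lce1h, Sprr2k and Sprr2b.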

How the results depend on the processing

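The number of members past the threshold stayed within 1.5 times the reported one in both preparation comparisons under every alternative run. Between groups it moved with how repeat arrays and preparations were treated. With the replicate block, which takes the preparation numbers 1 and 2 as shared by both ieSC groups, the counts were 20 (reported 10) for all ieSCs, 22 (13) for MEF-derived and 12 (5) for TTF-derived cells against MEFs. The labels do not say that the numbers pair the preparations, and with 2 pairs the correlation of their differences over features was 0.27. Averaging the arrays of each preparation left 6 members for all ieSCs, 3 for TTF-derived cells and 7 (17) between the ieSC groups. Without MEF-derived preparation 2 the counts were 17 for all ieSCs, 23 for MEF-derived and 10 for TTF-derived cells. Without MEF-derived preparation 1 it was 9 for TTF-derived cells. Of these TTF-derived counts of 10 and 9, 5 each were downward, beside 1 of the reported 5. Without TTF-derived preparation 2, 11 passed between the ieSC groups. Leaving out 1 array at a time gave 3 to 5 for TTF-derived cells against MEFs, the lowest without MEF array 2. The difference of Lce1h between all ieSCs and MEFs, 0.12 and not past the threshold, became -1.03 and past it without MEF-derived preparation 1. Its mean was 10.44 in that preparation, 5.85 in MEF-derived preparation 2, 4.47 in TTF-derived cells and 6.19 in MEFs. Without preparation 1 both ieSC means thus lay below MEFs. Why the preparations differed was not tested. Of the named members' differences between MEF-derived cells and MEFs under all alternatives, 353 stayed on their side of the threshold, 22 lost it and 19 gained it, and 0 changed sign as calls. Dim readings near the filter level limit what can be said of Flg, Rptn, Lce1b, Lce3 and Sprr4. The same holds for Lce1d, Lce1f and Lce1h in TTF-derived cells, and for Lce1e outside MEF-derived preparation 1. Sprr1b, Sprr2b, Sprr2e, Sprr2f, Sprr2h and Sprr2i were below the filter level on both MEF arrays. The sizes of their differences from MEFs therefore rest on dim MEF readings.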

Other observations

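Other gene lists of barrier biology were measured beside the envelope genes. By limma's adjusted threshold, 17 of 20 targets of Nrf2, the factor of the antioxidant response, rose and 1 fell in ieSCs against MEFs. Of all genes, 27.3% rose and 24.4% fell. The median log2 difference of the targets was 1.21, beside 0.086 over all genes. Nqo1, a quinone reductase, rose by 3.83 ± 0.21 and Gsta3, a glutathione transferase, by 5.42 ± 0.43. Between preparations 1 and 2 of the TTF-derived cells 8 of the 20 fell and 1 rose, beside 11.4% and 9.59% of all genes. Gsta4 was among those that fell, by 0.68 ± 0.10. Of 24 alarmin and barrier stress genes, 11 rose and 4 fell against MEFs, beside 27.3% and 24.4% of all genes. Lcn2, an iron-sequestering defence protein, rose by 3.90 ± 0.13, Il18 by 4.07 ± 0.26, and Il1b, another interleukin, fell by 2.65 ± 0.10.

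Of 19 genes of the lipid envelope, the ceramide coat around the cornified shell, 8 rose and 4 fell, beside 27.3% and 24.4% of all genes. Fa2h, a fatty acid hydroxylase, rose by 2.74 ± 0.30 from a dim 3.52 in MEFs, and Sult2b1, a cholesterol sulfotransferase, by 1.68 ± 0.18. The elongases Elovl6 and Elovl4 fell by 2.00 ± 0.14 and 2.44 ± 0.34. Pnpla1, which makes acylceramides, averaged 6.92 and 8.09 in MEF-derived preparations 1 and 2 and 5.71 and 5.55 in the TTF-derived ones, and rose by 1.17 ± 0.15 between the MEF-derived preparations, opposite in sign to the Lce1 genes there.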
